A study of Mus musculus with 54 samples.

Results

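The genes described are 74 members of cytochrome P450 families 1 to 4 among 55471 genes listed for each tissue. They were chosen by name: every gene whose symbol starts with Cyp, a family number from 1 to 4, a subfamily letter and a gene number, pseudogenes left out. The rule also left out 8 Cyp2b and Cyp3a genes (Cyp2b9, Cyp2b10, Cyp2b13, Cyp3a11, Cyp3a13, Cyp3a25, Cyp3a41a and Cyp3a44). No measured value was used in it, but it was chosen with earlier results of these data known. RNA was sequenced from liver, kidney and quadriceps of C57BL/6J mice, a common inbred strain. In each sex there were young mice of 50 weeks, old mice of 130 weeks, and mice of 130 weeks labelled corylin, which the study's design describes as long-term feeding of a diet with corylin, a plant flavonoid, against a control diet. All mice carried the same strain background, and no dose is given in the sources used here. Each of the 18 groups had 3 libraries, except that 2 were analysed for the livers of corylin males, which makes 53 libraries; mouse codes in the library names recur across the tissues and number 18. P-values measure the spread between these mice.

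Cytochromes P450 are heme proteins of the endoplasmic reticulum that put an oxygen atom into drugs, steroids, fatty acids and other lipids, with electrons from P450 reductase. Families 1 to 3 mainly handle foreign compounds and steroids, and several Cyp2c and Cyp2j enzymes make epoxides of arachidonic acid. Family 4 hydroxylates fatty acids and eicosanoids at the far end of the chain. In the liver of rodents many of these genes are expressed at different levels in females and males, under the control of the pattern of growth hormone release and of androgens. Others respond to nuclear receptors: Cyp1 genes to the aryl hydrocarbon receptor and Cyp4a genes to PPARalpha, which senses fatty acids.

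Many members lie beside close relatives, and the upstream sequences of such neighbours could be compared. The following stretches are 150 aligned bases just upstream of the RefSeq gene start (GRCm38.p6), in pairs, with the bases that differ between the members of a pair in capitals. They are shown because the pairs Cyp2a4 with Cyp2a5 and Cyp2d9 with Cyp2d10 differed in their sex difference in liver, while Cyp3a16 and Cyp3a41b were both higher in females.
Cyp2a4, chr7:26307042-26307191, plus strand: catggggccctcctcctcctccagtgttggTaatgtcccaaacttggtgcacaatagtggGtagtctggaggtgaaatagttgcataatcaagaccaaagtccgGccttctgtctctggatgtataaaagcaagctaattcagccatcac
Cyp2a5, chr7:26835188-26835337, plus strand: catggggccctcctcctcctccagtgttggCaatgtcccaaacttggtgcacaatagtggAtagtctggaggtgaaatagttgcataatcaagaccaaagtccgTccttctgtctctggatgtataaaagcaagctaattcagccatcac
Cyp2d9, chr15:82452227-82452376, plus strand: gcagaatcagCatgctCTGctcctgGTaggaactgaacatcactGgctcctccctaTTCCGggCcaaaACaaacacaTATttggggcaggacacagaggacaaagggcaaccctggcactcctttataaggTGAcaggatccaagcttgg
Cyp2d10, chr15:82407198-82407347, minus strand: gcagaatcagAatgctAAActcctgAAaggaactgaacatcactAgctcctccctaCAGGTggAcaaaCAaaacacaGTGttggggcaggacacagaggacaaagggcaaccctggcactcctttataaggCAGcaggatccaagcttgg
Cyp3a16, chr5:145469728-145469877, minus strand: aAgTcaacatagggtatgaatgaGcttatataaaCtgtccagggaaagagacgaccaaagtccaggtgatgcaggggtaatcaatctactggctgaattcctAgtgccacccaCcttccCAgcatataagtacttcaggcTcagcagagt
Cyp3a41b, chr5:145584731-145584880, minus strand: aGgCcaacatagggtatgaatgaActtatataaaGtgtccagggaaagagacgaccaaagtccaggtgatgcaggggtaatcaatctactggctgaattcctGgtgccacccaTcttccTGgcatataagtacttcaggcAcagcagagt
The Cyp2a4 and Cyp2a5 stretches differed at 3 positions (98% identity), the Cyp3a16 and Cyp3a41b stretches at 9 (94%), and the Cyp2d9 and Cyp2d10 stretches at 21 (86%). Over the longer upstream window the Cyp2d9 and Cyp2d10 pair differed at 67 of 247 aligned bases, and the Cyp2a4 and Cyp2a5 pair at 4 of 249. A total of 58 members had an upstream sequence of 250 bases before to 50 after the start in RefSeq's table. The letters TTCNNNGAA, the motif of STAT5, which carries the growth hormone signal, reads the same on both strands and was found in 4 of the 58 (6.9%), against 2582 of 27025 genes (9.55%). It was in 0 of the 9 members that had such a sequence and a sex difference in young liver. The core of the aryl hydrocarbon receptor's site, GCGTG on either strand, was found in 12 of 58 (20.7%), Cyp1a1 and Cyp1b1 among them, against 35.2% of all genes. A match is a description of letters in this window.

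Liver libraries held 9031719 to 16610500 counts each. Kidney libraries held 8687606 to 23190258, and those of quadriceps 13249604 to 19695468. The tissue labels matched their defining genes: Alb was at a median of 56129 CPM (each count scaled to the same library size) in liver, 8.65 in kidney and 3.06 in quadriceps, Lrp2 at 1451 in kidney and 0.156 in liver, and Ckm at 13185 in quadriceps and 0.496 in liver. Library names carry a letter, B in 41 and R in 12. Every young library is B, while each old or corylin group has 1 R library, replicate 3, whose meaning is not given. In liver some R libraries stood apart from their group. Old female 3 had 155 CPM of Cyp2c50, a Cyp2c gene, where old females 1 and 2 had 5.97 and 3.26. In corylin male 3 the summed CPM of 6 macrophage markers was 2617 against 197 in corylin male 2, that of 4 neutrophil markers 135 against 4.11, and that of 4 tumour or fetal liver markers 36 against 1.42. In quadriceps, old female 3 stood apart in the same macrophage and neutrophil markers, at 898 and 97.3 CPM against 82.2 to 102 and 2.86 to 4.13 in the other old females. In kidney, old female 2 stood apart in adipocyte markers, with a sum of 289 CPM against 0.116 and 3.42 in the other old females. Some counts of members called, and some values that 1 of these libraries moved, are also given without it. A value printed without such a fit was not necessarily stable. The share of all genes passing in a fit without 1 library is mostly not given. A count that moved in such a fit is therefore no result about the members.

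The members differed widely in level. On the scale of the authors' TPM, which divides by gene length, 43 of the 61 members tested somewhere were highest in young liver, 16 in young kidney and 2 in young quadriceps. A gene was tested in a tissue if its counts passed a filter on low values, which 57 of 74 members did in liver, 40 in kidney and 17 in quadriceps, 16 of them in all 3. The other 13 (Cyp2b19, Cyp2b23, Cyp2c65, Cyp2c66, Cyp2j12, Cyp2t4, Cyp2w1, Cyp4a29, Cyp4a30b, Cyp4f37, Cyp4f40, Cyp4x1 and its antisense gene Cyp4x1os) were tested nowhere, and 1 member had 0 counts in all libraries.

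In young liver the highest member was Cyp2e1, which oxidizes ethanol and paracetamol, at a mean of 10779 TPM ± 1260 (SD, n = 6, both sexes). Cyp4a14 and Cyp4a10, fatty acid hydroxylases, followed at 8886 ± 2015 and 4569 ± 477 TPM. Cyp2d26 (1933 ± 314), Cyp2d10 (1309 ± 194) and Cyp2d9 (1099 ± 1177) came next, and the SD of Cyp2d9 exceeded its mean since its 6 libraries ran from 15.8 to 2309.7 TPM. In young kidney Cyp4a10 (2518 ± 553 TPM) and Cyp4a14 (2418 ± 1369) were highest and their ranges overlapped, ahead of Cyp4b1 (1939.9 ± 1459.7), Cyp2j5 (955 ± 298), Cyp4a31 (919.8 ± 133) and Cyp2e1 (865 ± 750.4). In young quadriceps no member but Cyp2e1 (46.5 ± 102 TPM, from 2.09 to 256) and Cyp2d22 (16.5 ± 4.59) reached a mean of 10 TPM. Levels of liver, kidney and muscle genes in bulk tissue cannot tell fewer cells of a type from less RNA per cell.

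**Figure D1:**
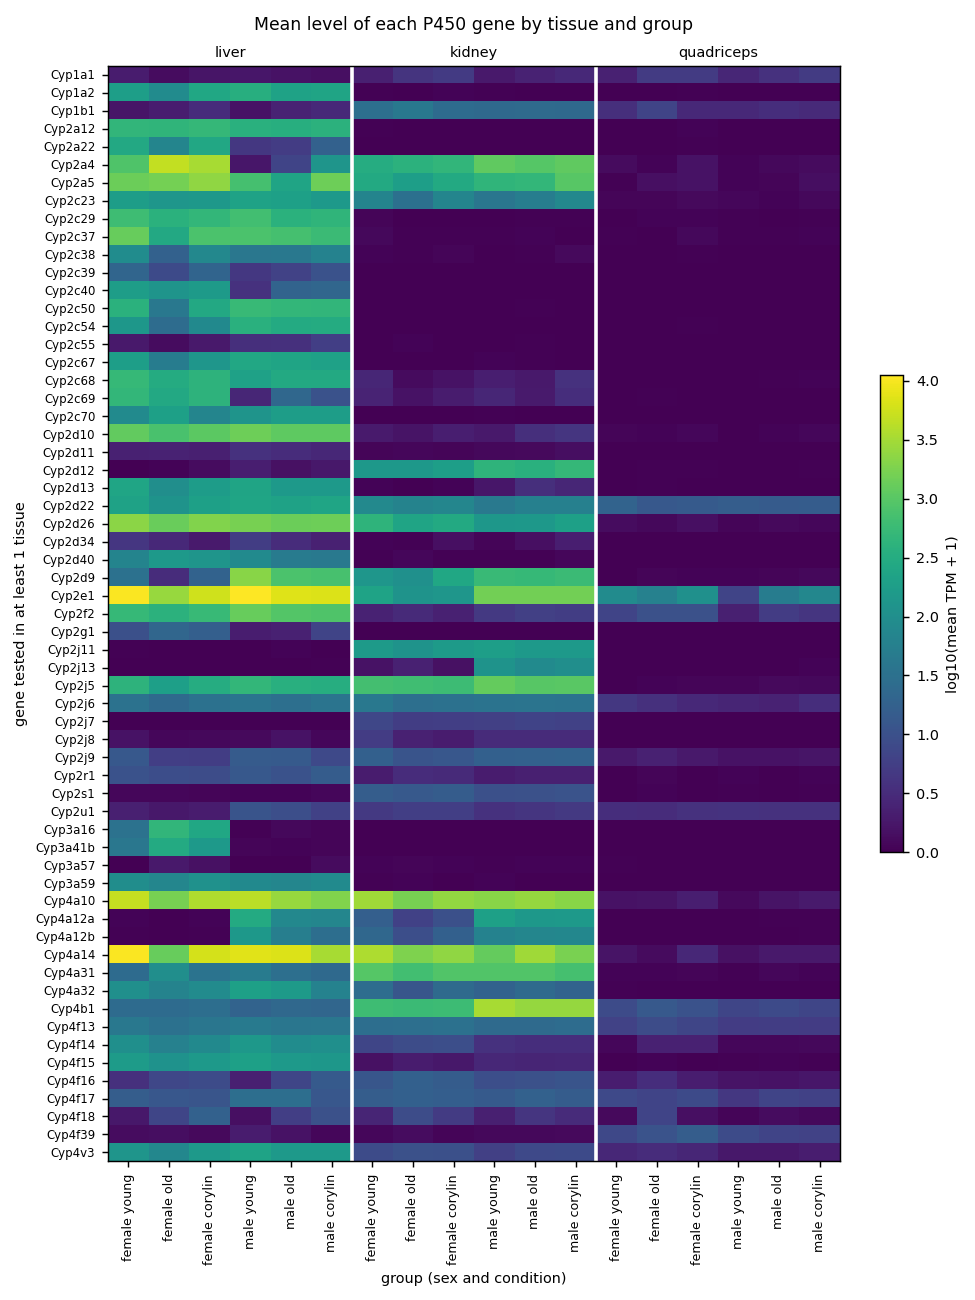
Mean level of the 61 tested P450 genes (rows) in the 18 groups (columns, by tissue, sex and condition), coloured by log10 of the mean TPM plus 1. Many rows are bright in liver and dark elsewhere, Cyp4b1, Cyp2j5, Cyp2j11 and Cyp4a31 are bright in kidney, and Cyp2d22 and Cyp2e1 are the brightest rows in quadriceps.

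The members made up 3.29 to 3.96% of all counts in the livers of young females and 3.3 to 3.61% in young males. In old females the share was 1.2 to 2.07% and in old males 2.15 to 2.51%, both below every young library of that sex. In corylin females it was 2.15 to 3.11%, above every old female, and in corylin males 3.03% in replicate 2 and 1.08% in replicate 3. In kidney it was 0.835 to 1.06% in young, 0.435 to 0.721% in old and 0.534 to 0.942% in corylin females, and between 1.08 and 1.46% in all males.

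The sexes were compared first, in young mice. In liver, 14 of 57 members differed between young females and young males at an adjusted p under 0.05 (edgeR's quasi-likelihood test, Benjamini-Hochberg over all genes), 8 higher and 6 lower in females. Of all 15158 genes tested in liver, 1.28% passed, 0.528% higher and 0.752% lower in females. The median log2 difference was -0.20 over members and 0.02 over all genes. The genes higher in females were of the Cyp2a, Cyp2c, Cyp2g and Cyp3a subfamilies, and those lower in females of the Cyp2d, Cyp2f, Cyp2u and Cyp4a subfamilies.

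Cyp4a12a, which makes the vasoactive lipid 20-HETE from arachidonic acid, had 429, 299 and 218 CPM in young males and 0.146, 0.151 and 0 in young females. Its neighbour Cyp4a12b had 221, 139 and 85.4 CPM in young males and 0.0732, 0.0757 and 0 in females. The sexes did not overlap for either gene. The pooled counts of Cyp4a12a were 9664 in males and 4 in females, a ratio of 3326 with a 95% exact interval of 1299 to 12209 that covers counting error only. For Cyp4a12b they were 4522 and 2, a ratio of 3113 (861 to 25709). The genes share 25.6% and 25.9% of their 150-base windows, so reads could be split between them, and with their counts summed the log2 difference was -11.59 (edgeR adjusted p = 6.88e-06).

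Cyp2d9, a testosterone 16alpha-hydroxylase, had 2651, 2654 and 2307 CPM in young males and 16.8, 57.4 and 30.3 in young females, a log2 difference of -6.19 (SE 0.68, edgeR adjusted p = 0.000215). Cyp2d10, its neighbour on chromosome 15, had 999, 1176 and 978 CPM in males and 677, 893 and 847 in females, and its difference did not pass (-0.38, SE 0.21). Cyp2f2, which activates naphthalene, was lower in females by 1.39 on the log2 scale (edgeR adjusted p = 0.0313), with 340 to 476 CPM against 978 to 1401. Cyp2u1, a fatty acid hydroxylase, had 2.14 to 3.26 CPM in females and 18.7 to 31.6 in males. Cyp2d12 was near the floor in liver, with 68 pooled counts in males and 2 in females, a ratio of 46.8 (12.5 to 394).

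Cyp2a4, a steroid 15alpha-hydroxylase, had 533, 747 and 576 CPM in young females and 0.67, 0.819 and 0.249 in young males, a log2 difference of 10.09 (SE 1.27, edgeR adjusted p = 0.000632). Cyp2a5, the coumarin 7-hydroxylase whose upstream sequence is nearly the same, had 899.9, 1419 and 1251 CPM in females and 347, 811 and 809 in males. The sexes did not overlap, and its difference of 0.86 (SE 0.52, edgeR adjusted p = 0.708) did not pass. The transcripts of the pair share 4.22% of the windows of Cyp2a4, and with both genes' counts summed the difference was 1.46 (edgeR adjusted p = 0.133). Cyp2a22 was at 337 to 454 CPM in young females and 3.54 to 8.54 in young males, 6.17 higher on the log2 scale (SE 0.57, edgeR adjusted p = 3.81e-05).

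Among Cyp2c genes, Cyp2c69 had 246, 325 and 468 CPM in young females and 2.2, 0.585 and 1.08 in young males, and Cyp2c40 had 125, 155 and 182 against 3.16, 1.4 and 2.99. Cyp2c68 was 1.27 higher on the log2 scale (SE 0.29, edgeR adjusted p = 0.0423). Cyp2c40 and Cyp2c69 share 29.1% and 22.5% of their windows with other genes, so their counts are uncertain. Cyp3a16 had 929 pooled counts in young females and 1 in young males, a ratio of 675 (121 to 26683). Cyp3a41b had 1377 and 4, a ratio of 250 (97.4 to 919), and 82.7% of its windows are also in Cyp3a41a, whose counts summed with it gave 8.46 (edgeR adjusted p = 0.00161). Both Cyp3a genes varied widely among young females: Cyp3a16 was at 54.9 CPM in replicate 1 and 5.15 and 6.99 in the others, and Cyp3a41b at 72.3, 3.94 and 21.2. Cyp2g1, known from the olfactory mucosa, was at 6.44 to 9.77 CPM in females and 0.67 to 1.82 in males. Without young male 1, and without young male 2, 8 members passed, and 9 to 11 in the other fits without 1 library. The calls of Cyp2c68, Cyp2f2 and Cyp2u1 were lost in each of these 6 fits, those of Cyp2c40 in 3, and those of Cyp2g1 and Cyp3a16 in 2 each.

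In kidney, 11 of 40 members differed between young females and young males, 3 higher and 8 lower in females, and 6.25% of all 17174 genes passed, 2.37% higher and 3.88% lower. The median log2 difference was -0.11 over members and 0.02 over all genes. Cyp2j13 had 252, 185 and 291 CPM in young males and 1.23, 0.35 and 1.56 in young females (-7.85 on the log2 scale, SE 0.49, edgeR adjusted p = 1.77e-08). Its relative Cyp2j5, an arachidonic acid epoxygenase of the kidney, had 1241, 1280.2 and 1255 CPM in males and 584, 558 and 645 in females (-1.08, SE 0.14, edgeR adjusted p = 9.05e-05).

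Cyp4b1, which hydroxylates fatty acids, had 3624, 2842 and 3284 CPM in male and 453, 480.3 and 609 in female kidneys, a log2 difference of -2.66 (SE 0.36, edgeR adjusted p = 0.000159). Cyp2e1 had 1412, 1097 and 1788 CPM in males and 127, 162 and 240.1 in females (-3.02, SE 0.62, edgeR adjusted p = 0.0062), while in liver its values in the sexes overlapped. Cyp4a12a was at 181 to 280 CPM in males and 9.1 to 19.4 in females, and Cyp4a12b at 54.7 to 71.9 and 14.2 to 21.6. Cyp2d9 was at 564 to 685 CPM in males and 121 to 140 in females. Its neighbour Cyp2d12 was at 522 to 822 and 130.3 to 284, and that difference did not pass (-1.80, SE 0.54, edgeR adjusted p = 0.0608).

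Cyp2a4 was higher in the kidneys of males: it had 953, 818 and 871 CPM there and 164, 186 and 277 in females, a log2 difference of -2.07 (SE 0.23, edgeR adjusted p = 1.71e-05). In liver the order of the sexes was the opposite, with every female above every male, and the groups overlapped in neither tissue. With Cyp2a5 added the kidney difference was -1.58 (edgeR adjusted p = 0.00314). Higher in female kidneys were Cyp2d26 (246, 247 and 346 CPM against 121, 109 and 96.1), Cyp4a14 (2597, 3637 and 4086 against 1161, 1661 and 1456) and Cyp4f14, which inactivates leukotriene B4 (4.97 to 5.62 against 2.73 to 3.19). The call of Cyp4a14 was lost in 5 and that of Cyp4f14 in all 6 fits without 1 library, and between 9 and 10 members passed in these fits. Of 36 members tested in both tissues, 4 passed in both: Cyp4a12a, Cyp4a12b and Cyp2d9 were lower in females in both, and Cyp2a4 went opposite ways.

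**Figure D2:**
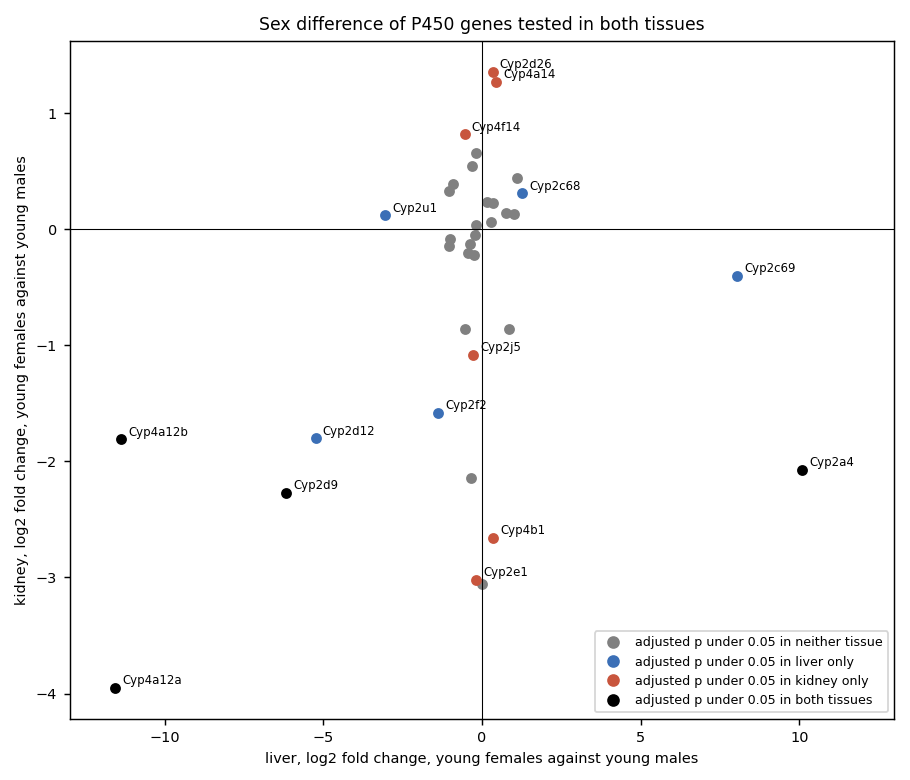
Log2 difference between young females and young males in liver (x axis) and kidney (y axis) for the 36 P450 genes tested in both, coloured by the tissues in which the adjusted p was under 0.05. Cyp2a4 lies alone at the lower right (10.09 in liver, -2.07 in kidney), and Cyp4a12a, Cyp4a12b and Cyp2d9 at the lower left.

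Age was compared next. In the livers of old against young females, 14 of 57 members changed, 9 lower and 5 higher in old mice, and 9.27% of all genes tested in liver passed, 3.73% lower and 5.54% higher. The median log2 change was -0.52 over members and -0.01 over all genes. The members that fell were Cyp2e1, Cyp4a14, Cyp4a10, Cyp2j5, Cyp2a22, Cyp2c38, Cyp2c67, Cyp2d13 and Cyp2d9. Those that rose were 3 Cyp3a genes, Cyp4a31 and Cyp4f18.

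Cyp2e1 had 8293, 10081 and 9691 CPM in young females and 2965, 1683 and 3044 in old females, a log2 change of -1.87 (SE 0.44, edgeR adjusted p = 0.0234). No old female reached the lowest young one. In males it had 8796, 10627 and 12492 CPM when young and 6152, 5335 and 5900 when old, again without overlap, but the change of -0.88 (SE 0.43, edgeR adjusted p = 0.278) did not pass.

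Cyp4a14 had 9045, 13019.9 and 12084 CPM in young females and 422, 1101 and 3067 in old females (-2.90, SE 0.73, edgeR adjusted p = 0.0291), and without old female 3, the highest of them, the change was -3.87 (edgeR adjusted p = 0.00989). Cyp4a10 had 4124, 4770.4 and 4059 CPM in young and 1409, 1759 and 1525 in old females (-1.46, SE 0.39, edgeR adjusted p = 0.034). In males Cyp4a10 was at 3571 to 4123 CPM in young and 2050 to 2280.1 in old mice (-0.88, SE 0.39), and Cyp4a14 at 7657 to 8956 and 6352 to 7378 (-0.30, SE 0.68), without passing. Cyp4a31, a minor relative in liver, rose in old females from 22.8, 28.4 and 26.9 CPM to 144, 165 and 26.8 (2.1, SE 0.51, edgeR adjusted p = 0.026), and old female 3 lay within the young range. Without that library the change was 2.61 (edgeR adjusted p = 0.00146). With Cyp4a10, Cyp4a31 and Cyp4a32 summed, the change was -1.36 (edgeR adjusted p = 0.0395), the sign of the dominant Cyp4a10, and -1.27 without old female 3 (edgeR adjusted p = 0.0885).

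Cyp2d9 was low in young females (16.8, 57.4 and 30.3 CPM) and lower in old females (1.65, 2.65 and 3.99), a log2 change of -3.66 (SE 0.64, edgeR adjusted p = 0.00772), the smallest adjusted p of the members in this comparison. The fall from 2651, 2654 and 2307 CPM in young males to 581, 747 and 1098 in old males was also without overlap (-1.65, SE 0.56, edgeR adjusted p = 0.139) and did not pass by itself. With Cyp2d9, Cyp2d10 and Cyp2d11 summed, the changes were -0.57 in females (edgeR adjusted p = 0.102) and -1.26 in males (edgeR adjusted p = 0.0327). In young females that sum was mostly Cyp2d10. Cyp2d13 fell from 352, 281 and 344 to 161, 139 and 132 CPM in females. Cyp2j5 fell from 440.4, 372 and 393 to 192, 179 and 242 CPM.

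Among the genes with higher levels in females, Cyp2a22 fell from 454, 409 and 337 CPM to 185, 63.6 and 69.7 (-1.91, SE 0.46, edgeR adjusted p = 0.0254). Cyp3a16 rose from 54.9, 5.15 and 6.99 to 461, 354 and 255 CPM (4.0, SE 0.78, edgeR adjusted p = 0.0122), and Cyp3a41b from 72.3, 3.94 and 21.2 to 266, 345 and 211 (3.08, SE 0.69, edgeR adjusted p = 0.0209). With Cyp3a41a and Cyp3a41b summed the change was 3.15 (edgeR adjusted p = 0.0212). Cyp3a57 had 0 counts in the young females and 32 in the old ones, at least 11.4-fold higher by a floor of 3 counts over the group. Cyp2a4 had 5211, 2296 and 3610.2 CPM in old females, all above the young ones, and its change of 2.58 (SE 0.85, edgeR adjusted p = 0.0684) did not pass. With Cyp2a5 summed to it the change was 1.53 (edgeR adjusted p = 0.0341), and 1.42 without old female 3 (edgeR adjusted p = 0.0628), while Cyp2a5 by itself had 1092, 801 and 2608 and overlapped (0.33, SE 0.52).

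In the Cyp2c family, Cyp2c67 fell from 138, 129 and 132 CPM in young females to 52, 14.9 and 48.8 (-1.78, SE 0.38, edgeR adjusted p = 0.0176) and Cyp2c38 from 96.3, 118 and 114 to 25, 2.38 and 39.8 (-2.28, SE 0.64, edgeR adjusted p = 0.0403). Cyp2c50 had 466, 407 and 506 CPM in young females and 5.97, 3.26 and 155 in old ones, where replicate 3 stood apart. Its change of -3.07 (SE 1.07, edgeR adjusted p = 0.0818) did not pass, and without that library it was -6.58 (edgeR adjusted p = 0.0014). Summed with its relatives Cyp2c37 and Cyp2c54 it was -2.33 (edgeR adjusted p = 0.0425), and -3.41 without that library (edgeR adjusted p = 0.0074). Cyp2c70, which makes muricholic bile acids in mice, had 77.2, 76.8 and 60.6 CPM in young and 101, 166 and 258 in old females (1.29, SE 0.40, edgeR adjusted p = 0.055).

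Cyp4f18, which oxidizes leukotriene B4 in mouse neutrophils, rose in old female livers from 0.658, 0.681 and 0.504 CPM to 6.03, 4.59 and 4.69 (3.05, SE 0.84, edgeR adjusted p = 0.0376). The same libraries differed in leukocyte markers: all 4 neutrophil markers and 5 of 6 macrophage markers rose, their summed levels going from 1.95 to 5.71 CPM in young to 22.5 to 185 in old females and from 152 to 241 to 892 to 1326 CPM. Their part in the change of Cyp4f18 was not tested.

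The count of 14 depended on the libraries in the fit. It was 6 without old female 1, 3 without old female 2, 3 without young female 1 or without young female 2, 1 without young female 3 and 14 without old female 3. Each of these fits has fewer libraries for every gene, and the share of all genes passing in it is not given here. On the B libraries alone the count was 32, and 21.9% of all genes passed in that fit. The 14 without old female 3 were not the same genes. There the calls of Cyp2a22, Cyp2d13, Cyp2j5, Cyp3a57 and Cyp4a10 were lost, and others such as Cyp2c50 and Cyp2d40 passed. Cyp2d9 passed in all 6 of the fits without 1 library. Calls of Cyp4a10, Cyp2d13 and Cyp2j5 were lost in all 6. Those of Cyp2e1, Cyp4a14, Cyp2a22, Cyp2c38, Cyp4a31 and Cyp4f18 were lost in 5, and that of Cyp3a57 in all 5 fits that tested it. Cyp2c67 lost its call in 3, Cyp3a41b in 2 and Cyp3a16 in 1.

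**Figure D3:**
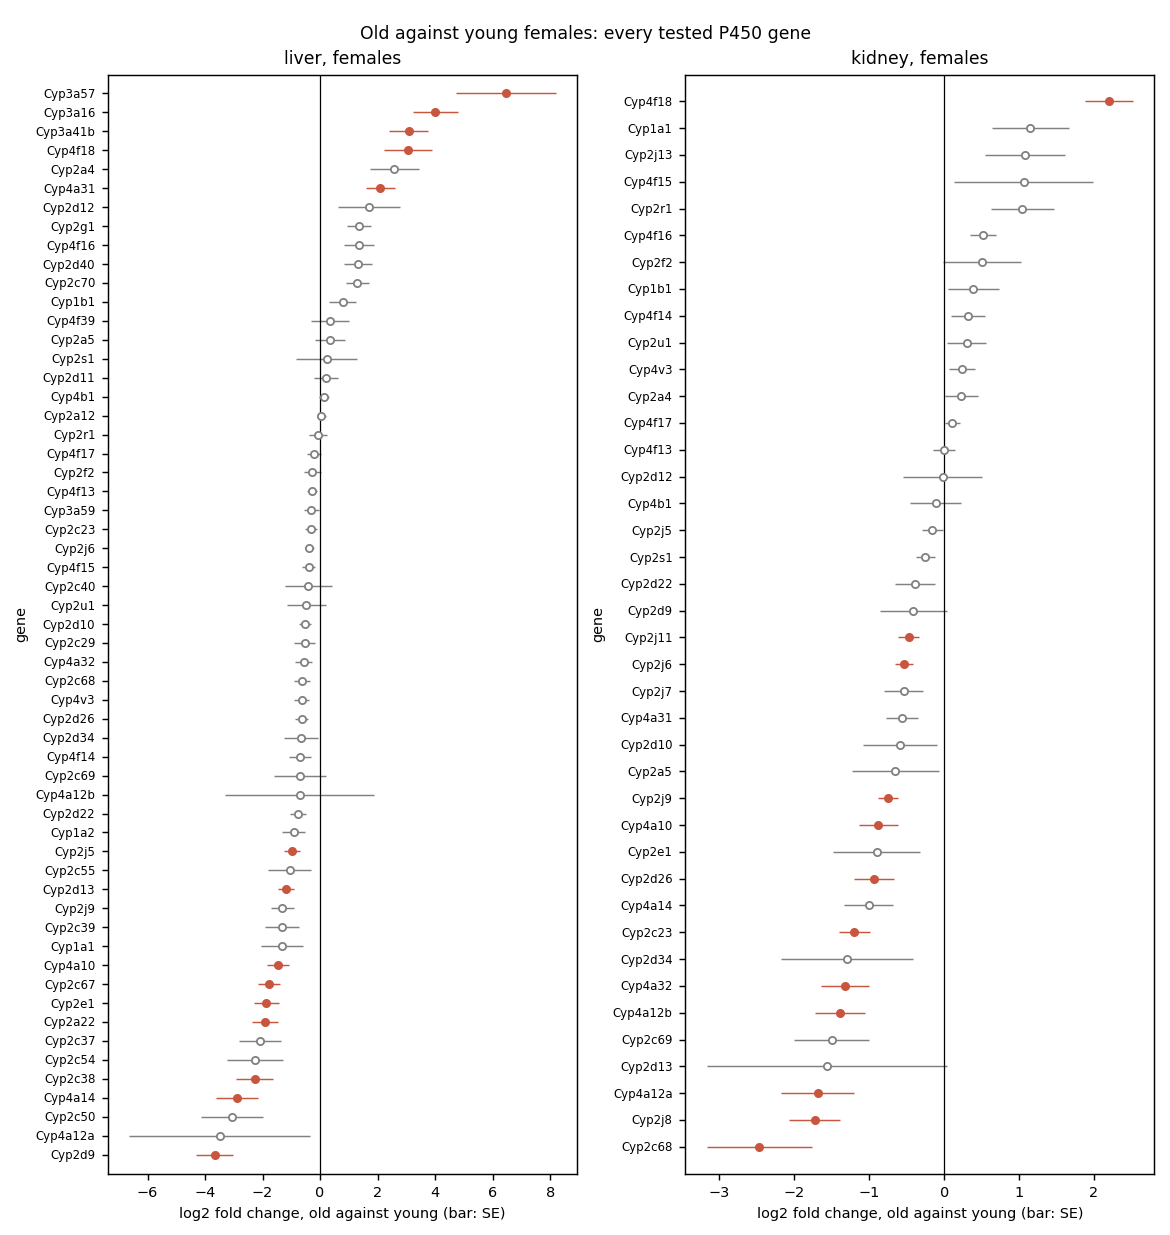
Log2 change between old and young females of each tested P450 gene in liver (left) and kidney (right), sorted, with bars for the SE and filled red points for an adjusted p under 0.05. Falls outnumber rises among the filled points in both tissues (9 against 5 in liver, 11 against 1 in kidney), and the value of Cyp3a57, which had 0 counts in young females, is set by the fit's prior.

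In the livers of old against young males 0 of 57 members passed (edgeR), 23 had an unadjusted p under 0.05 and 7 passed with DESeq2. Of all genes 0.211% passed by edgeR and 6.26% by DESeq2. The median over members was -0.47, with 42 of 57 below 0, and -0.01 over all genes. Cyp4a12a had 97.8, 58.3 and 55.9 CPM in old males, below every young male (-2.16, SE 0.53, edgeR adjusted p = 0.0872), and Cyp4a12b 39.6, 38.5 and 63.8 (-1.65, SE 0.45, edgeR adjusted p = 0.0959). Of the genes with higher levels in young females, Cyp2c69 had 19.1, 21.9 and 1.68 CPM in old males (3.44, SE 1.17, edgeR adjusted p = 0.143) and Cyp2c40 24.3, 16.9 and 2.2 (2.5, SE 0.99, edgeR adjusted p = 0.187), with old males 1 and 2 above every young male. Cyp2a22, of the same kind, had 4.43, 4.22 and 8.2 CPM in old males, within the range of young males. Cyp2a5 had 187, 114 and 233 CPM in old males against 347, 811 and 809 in young ones (-1.88, SE 0.54, edgeR adjusted p = 0.104). On the B libraries alone 10 members passed, against 5.38% of all genes.

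Averaged over the sexes, 16 members changed with age in liver, 13 lower and 3 higher, and 19.1% of all genes passed, 8.27% lower and 10.9% higher. The genes that fell were Cyp2d9 (-2.66, SE 0.42, edgeR adjusted p = 0.00299), Cyp2d13, Cyp2e1, Cyp4a10, Cyp2c67, Cyp2j5, Cyp2d10, Cyp4v3, Cyp2j6, Cyp2d26, Cyp1a2, Cyp4a14 and Cyp4f13, and the genes that rose Cyp4f18, Cyp4f16 and Cyp2a4. Cyp1a2, which demethylates caffeine, had 179, 128 and 153 CPM in young and 89, 48.2 and 105 in old females, and 280.2, 324 and 301 in young and 203, 147 and 142 in old males, so that neither sex overlapped (-0.90, SE 0.28, edgeR adjusted p = 0.0357). Cyp4f16 rose from 3 to 3.94 CPM to 7.43 to 10 in females and from 1.33 to 2.2 to 4.74 to 11.1 in males (1.70, SE 0.39, edgeR adjusted p = 0.0115). The rise of Cyp2a4 (2.64, SE 0.71, edgeR adjusted p = 0.0213) became -0.16 with Cyp2a5 summed to it, which was far the more abundant of the pair in young and old males. Without young male 2 the count was 9, and it was 10 without old female 2, without old male 2 or without young male 3. Of 12 fits without 1 library, the call of Cyp4f13 was lost in 12, Cyp4a14 in 11, Cyp1a2 in 10, Cyp2d26 in 9 and Cyp2j6 in 8. That of Cyp4v3 was lost in 5, Cyp2d10 in 4 and Cyp2a4 in 2. Those of Cyp2d9, Cyp2d13, Cyp2e1, Cyp4a10, Cyp2c67, Cyp2j5, Cyp4f16 and Cyp4f18 were lost in 0. Tested for a different age effect in females and males, 0 members and 0% of all genes passed in liver (edgeR). Of the members, 12 had an unadjusted p under 0.05 and 1 passed with DESeq2, as did 0.944% of all genes.

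Cyp4v3, a fatty acid hydroxylase, passed only in that averaged comparison in liver: it had 223, 201 and 176 CPM in young and 108, 128 and 149 in old females, and 451, 370.5 and 313 in young and 222, 218 and 223 in old males (-0.71, SE 0.19, edgeR adjusted p = 0.0198). Neither sex overlapped. Some members known for defined substrates passed in no comparison of liver. Cyp2c29, an arachidonic acid epoxygenase, was between 238 and 1027 CPM, and Cyp2r1, the 25-hydroxylase of vitamin D, between 3.8 and 12.9. Cyp1a1, the classic target of the aryl hydrocarbon receptor, was at 1.89 CPM or less in every liver, and at 4.95 or less in kidney and 6.05 or less in quadriceps. Cyp1b1, which hydroxylates estrogens and is known from tissues outside the liver, was highest in kidney, between 31.1 and 131 CPM, ahead of quadriceps (2.18 to 19) and liver (0.957 to 7.35). It passed in no comparison in any tissue, nor did Cyp1a1.

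**Figure D4:**
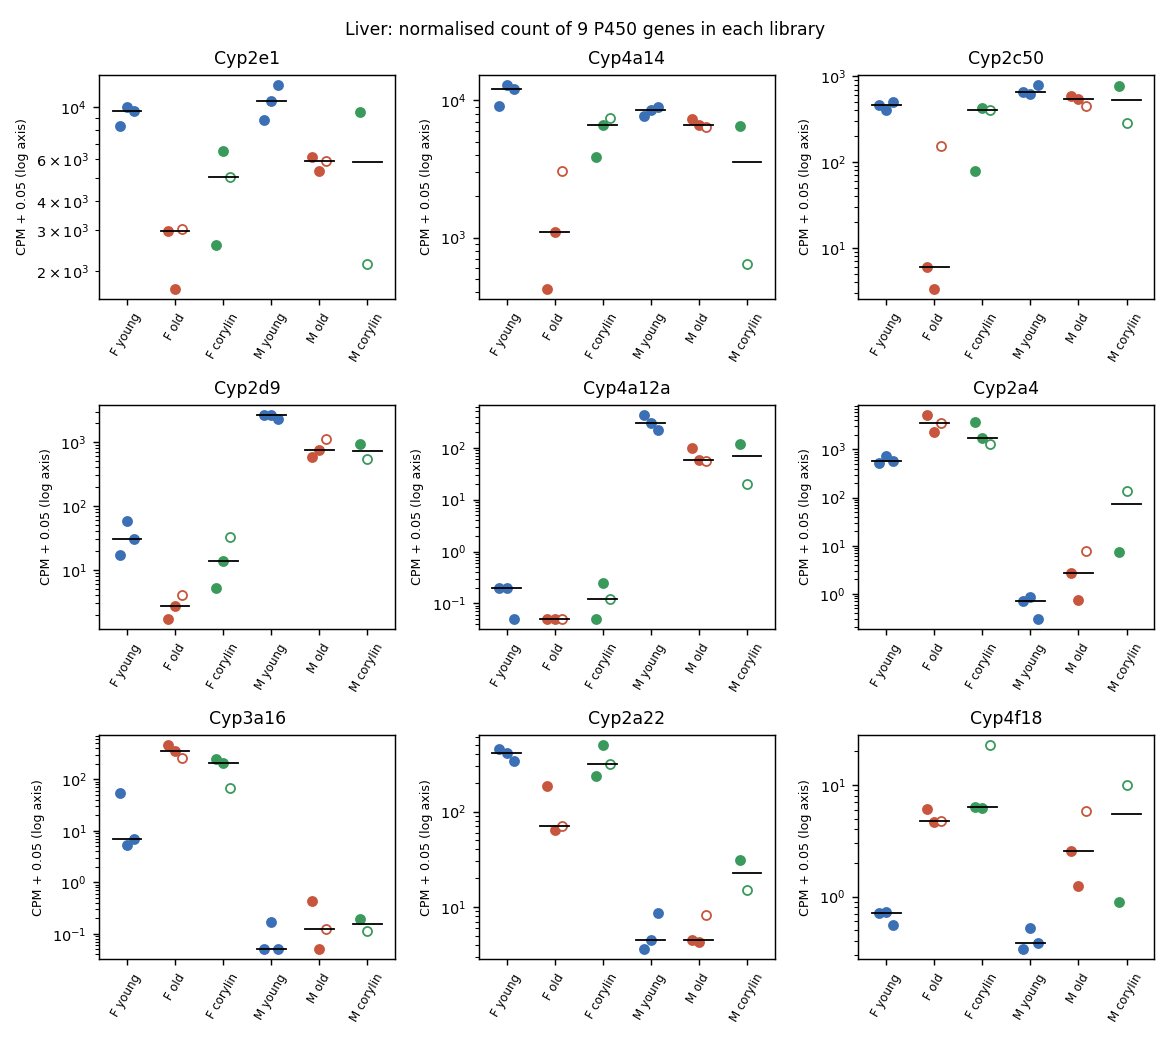
Normalised counts (CPM plus 0.05, log axis) of 9 P450 genes in each liver library, by sex (F, M) and condition, with a line at the group's median and open circles for R libraries. Old females lie below young females for Cyp2e1, Cyp4a14, Cyp2d9 and Cyp2a22 and above them for Cyp3a16, Cyp2a4 and Cyp4f18, and the open circles of old females for Cyp2c50 and of corylin males for Cyp4a14 lie apart from their groups.

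The corylin groups addressed what the long-term diet changed in mice of 130 weeks. In liver no member passed in either sex alone (edgeR). In females 0 of 57 passed, 12 had an unadjusted p under 0.05, and 7 passed with DESeq2. Of all genes 0.152% passed by edgeR and 3.89% by DESeq2. In males 0 of 57 passed, 6 had an unadjusted p under 0.05, and 6 passed with DESeq2. Of all genes 0.0594% passed by edgeR and 0.865% by DESeq2. The medians were 0.24 over members and 0.03 over all genes in females, and 0.00 and 0.07 in males.

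Averaged over the sexes, 2 members changed, against 1.07% of all genes. Cyp2a22 was at 235, 497 and 315 CPM in corylin females against 185, 63.6 and 69.7 in old females, and at 30.6 and 14.9 in corylin males against 4.43, 4.22 and 8.2 in old males. The groups did not overlap in either sex, and the averaged difference was 1.87 (SE 0.35, edgeR adjusted p = 0.0261). The levels of corylin females overlapped those of young females. Cyp4f17 was at 14.8, 13.1 and 11.4 CPM in corylin females against 19.2, 13.9 and 16.8, and at 17.5 and 10 in corylin males against 29.3, 28.3 and 42.8 in old males (-0.82, SE 0.18, edgeR adjusted p = 0.0469). The averaged difference of Cyp4f17 was -0.65 without corylin male 3 and -0.86 without old female 3. The averaged count was 7 without corylin male 2 or without corylin male 3, 6 without old female 3, 1 without corylin female 3, old female 1 or old male 3, and 0 without corylin female 2, old female 2, old male 1 or old male 2. On the B libraries alone, which hold 1 corylin male, it was 13, against 5.82% of all genes.

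Several members that were low in old females had higher values in corylin females, without passing in the main fit. Cyp4a14 had 3864, 6646 and 7492 CPM, each above the old females (1.97, SE 0.70, edgeR adjusted p = 0.19), and on the B libraries alone its difference was 2.80 (edgeR adjusted p = 0.00745). Cyp2d9 had 5.07, 13.9 and 32.7 CPM against 1.65, 2.65 and 3.99 (2.64, SE 0.62, edgeR adjusted p = 0.0906), and Cyp1a2 had 159, 225 and 199 against 89, 48.2 and 105 (1.26, SE 0.39, edgeR adjusted p = 0.145). With Cyp2d9, Cyp2d10 and Cyp2d11 summed the difference was 0.27 (edgeR adjusted p = 0.591), and such a sum follows its most abundant gene. Cyp2c70 had 41.7, 56.2 and 57.2 CPM against 101, 166 and 258 (-1.76, SE 0.40, edgeR adjusted p = 0.0827). Without old female 3 Cyp4a14 was at 2.93 and Cyp2d9 at 2.96, and both passed (edgeR adjusted p = 0.0471 for each). Cyp1a2 (1.45, edgeR adjusted p = 0.0998) and Cyp2c70 (-1.41, edgeR adjusted p = 0.0699) did not pass in that fit. For each of these 4 genes the corylin and old females did not overlap. That is a description and no test, and how many of all genes did so was not counted. The corylin and age comparisons share the old females, so opposite signs in them are not independent results.

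In males the corylin libraries disagreed with each other. Cyp2e1 was at 9541 CPM in corylin male 2 and 2142 in corylin male 3, against 6152, 5335 and 5900 in old males (0.01, SE 0.48), and Cyp4a14 at 6489 and 639 against 7378, 6671 and 6352. Leaving out either of them leaves 1 library, which the fit assumes to vary like the other groups. Without corylin male 2 the difference of Cyp2e1 was -1.52 and 15 members passed, against 9.59% of all genes, so these calls describe corylin male 3 alone. Without corylin male 3 the difference was 0.71 and 0 members passed. Cyp2a4, nearly silent in young males, was at 7.23 CPM in corylin male 2 and 138 in corylin male 3 against 2.62, 0.703 and 7.69 in old males (4.32, SE 0.98, edgeR adjusted p = 0.139), and without corylin male 3 its difference was 0.97 (edgeR adjusted p = 0.705). Cyp2a5 was at 1779 and 566 CPM against 187, 114 and 233 (2.72, SE 0.58, edgeR adjusted p = 0.119), without overlap, and its difference was 3.31 without corylin male 3 (edgeR adjusted p = 0.0712). Summed, the pair differed by 2.78 (edgeR adjusted p = 0.0377), and by 3.29 without that library (edgeR adjusted p = 0.0236). For Cyp2a5 the average over sexes was 1.52 (SE 0.39, edgeR adjusted p = 0.0727). That average was 1.81 without corylin male 3, and 1.80 without old female 3 (edgeR adjusted p = 0.0193). The high macrophage, neutrophil and tumour or fetal liver markers of corylin male 3 stand beside these values, and their part in them was not tested. The difference of the corylin effect between the sexes passed for 0 members and 0% of all genes by edgeR and for 0 members by DESeq2, with 10 members at an unadjusted p under 0.05.

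In the kidneys of old against young females, 12 of 40 members changed, 11 lower and 1 higher, and 10.8% of all genes tested in kidney passed, 3.16% lower and 7.69% higher. The median change was -0.44 over members and 0.00 over all genes. Of 7 tested Cyp2j genes 4 fell, of 6 Cyp4a genes 4, of 3 Cyp2c genes 2 (Cyp2c23 and Cyp2c68) and of 7 Cyp2d genes 1 (Cyp2d26), while Cyp4f18 rose.

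Cyp2c23, the main arachidonic acid epoxygenase of the mouse kidney, had 42.8, 50.9 and 65.6 CPM in young and 18.9, 24.2 and 26.2 in old females (-1.20, SE 0.21, edgeR adjusted p = 0.00131). In males it was at 31.3 to 39.7 CPM in young and 36 to 49 in old mice (0.27, SE 0.20), and the female minus male difference of these changes was -1.47 (SE 0.29, edgeR adjusted p = 0.0563). Cyp2j9 fell from 17.9, 19.8 and 23.6 to 14.4, 10.5 and 11.7 CPM in females (-0.75, SE 0.13, edgeR adjusted p = 0.00166), Cyp2j6 from 50.7, 51.3 and 62.1 to 33.1, 44.5 and 35.6, and Cyp2j11 from 105, 112 and 119 to 63.8, 84.2 and 94. Cyp2j8 was scarce and fell from 2 to 2.63 to 0.52 to 0.914 CPM (-1.73, SE 0.34, edgeR adjusted p = 0.00378). None of these Cyp2j genes overlapped between the ages.

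Cyp4a10 had 2172, 2410.1 and 2278 CPM in young and 839, 1446 and 1432 in old female kidneys (-0.88, SE 0.26, edgeR adjusted p = 0.0372). Cyp4a32 fell from 13.4, 15.9 and 16.4 to 5.49, 6.34 and 6.26 CPM (-1.33, SE 0.32, edgeR adjusted p = 0.012). Cyp4a12a fell from 9.1, 19.4 and 13.1 to 2.89, 2.63 and 7.18 CPM and Cyp4a12b from 14.2, 20.2 and 21.6 to 4.91, 6.23 and 10.2, with a change of -1.52 for their sum (edgeR adjusted p = 0.0189). Cyp4a14 had 2597, 3637 and 4086 CPM in young and 1058, 2197 and 1855 in old females (-1.01, SE 0.33, edgeR adjusted p = 0.0587). In males it was at 1161, 1661 and 1456 in young and 2061, 3717 and 3169 in old mice (1.06, SE 0.33, edgeR adjusted p = 0.223), and the difference between the sexes was -2.08 (SE 0.47, edgeR adjusted p = 0.0765). Cyp2d26 fell from 246, 247 and 346 to 77.8, 178 and 181 CPM, and Cyp2c68 was at 1.5 CPM or less in all young and old females.

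Cyp4f18 rose in old female kidneys from 1.23, 0.875 and 1.27 to 3.58, 6.28 and 5.72 CPM (2.20, SE 0.32, edgeR adjusted p = 0.000512), and in old males it had 1.91, 2.44 and 2.89 CPM against 1.06, 1.25 and 0.725. Beside it, all 6 macrophage markers rose in old female kidneys, from a summed 152 to 240.1 CPM to 680.4 to 919, and 2 of 3 tested neutrophil markers rose, from a sum of 0.636 to 0.968 to 3.81 to 11.4. Their part in its change was not tested. Other lists moved too: 2 of 5 distal nephron markers fell (Calb1, -1.16, and Slc12a3, -0.66), and 0 of 6 proximal tubule markers passed. Of 4 genes listed as cholangiocyte markers 3 rose (Spp1, 2.03, Sox9, 1.77, and Krt19, 2.08), their sum going from 1478 to 1748 to 3394 to 9502 CPM. That list is named for bile duct cells of the liver. Its sum was 804 CPM or more in every kidney and 146 or less in every liver, so it does not mark that cell type in kidney. The part of these lists in the members' changes was not tested. The count of 12 was 11 without old female 2, the library high in adipocyte markers, 5 without old female 1, 6 without young female 3, 8 without young female 2 and 15 without old female 3. The share of all genes passing in each of these fits is not given here.

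In male kidneys 0 of 40 members passed with age (edgeR), 9 had an unadjusted p under 0.05 and 1 passed with DESeq2. Of all genes 0.111% passed by edgeR and 1.36% by DESeq2. Cyp2j5 was at 1019.7, 814 and 909 CPM in old males, below every young male (-0.46, SE 0.14, edgeR adjusted p = 0.199). Averaged over the sexes, 7 members changed, 1 higher and 6 lower, against 8.86% of all genes (6.64% higher and 2.22% lower): Cyp4f18 rose (1.72, SE 0.23, edgeR adjusted p = 0.000244), and Cyp2j11, Cyp2j9, Cyp2j8, Cyp2j6, Cyp2c69 and Cyp4a12a fell. Cyp2j11 had 122, 106 and 109.8 CPM in old and 149.7, 161 and 162 in young males, without overlap as in females (average -0.48, SE 0.10, edgeR adjusted p = 0.00655). That count was 4 without old female 1 or without young female 3. The age effects of the sexes differed for 0 members by edgeR (13 at an unadjusted p under 0.05) and 4 by DESeq2, against 0.0932% and 2.01% of all genes.

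**Figure D5:**
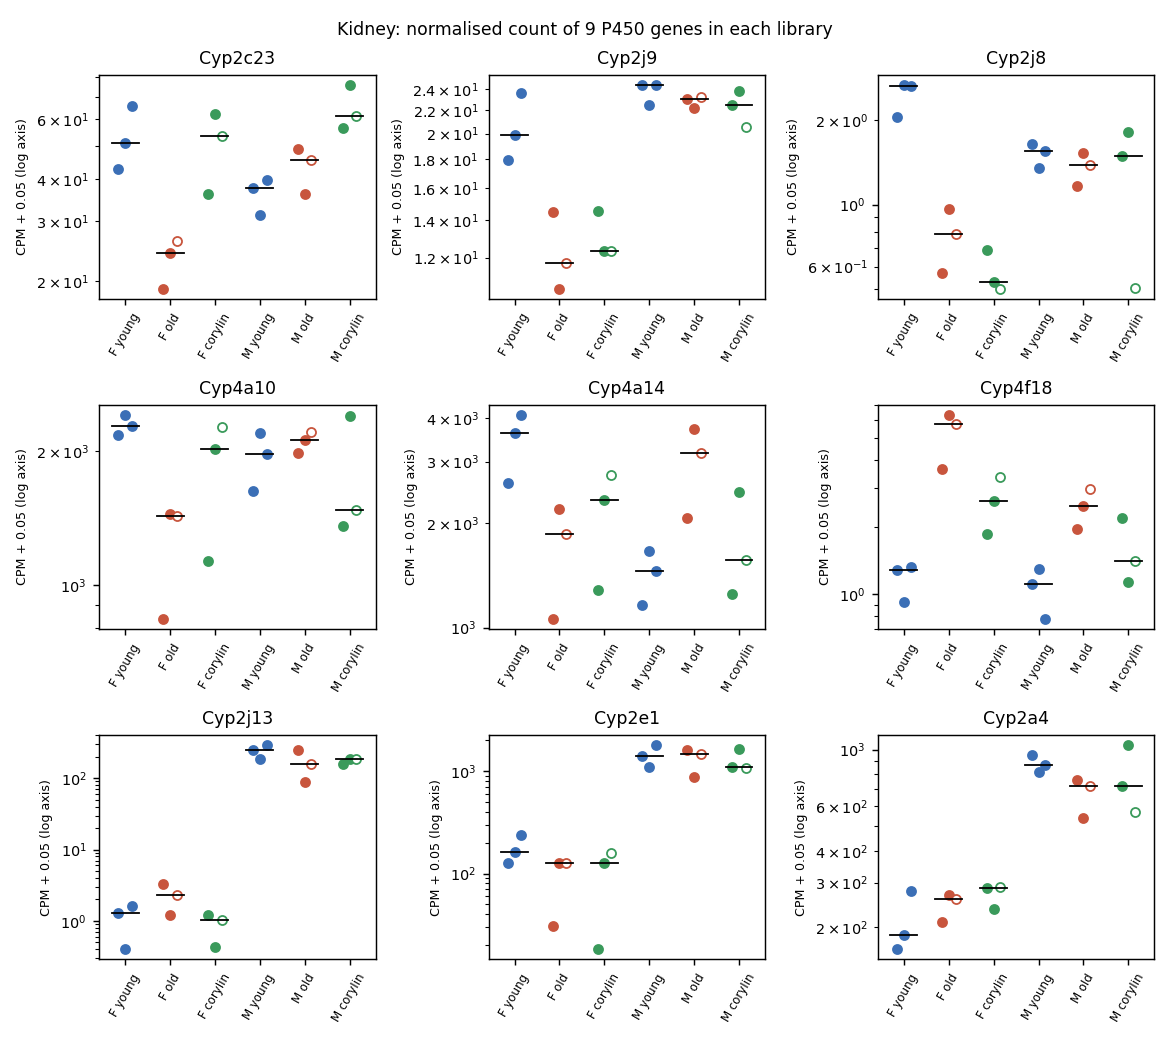
Normalised counts (CPM plus 0.05, log axis) of 9 P450 genes in each kidney library, by sex (F, M) and condition, with a line at the group's median and open circles for R libraries. Old females lie below young females for Cyp2c23, Cyp2j9, Cyp2j8 and Cyp4a10, corylin females above old females for Cyp2c23, and males above females for Cyp2j13, Cyp2e1 and Cyp2a4.

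With corylin, no kidney member passed in either sex alone: 0 of 40 did in females by edgeR, where 0.0582% of all genes did, and 0 of 40 in males, where 0.0699% did. DESeq2 called 1 in females, with 1.32% of all genes, and 0 in males, and 9 and 6 members had an unadjusted p under 0.05 in edgeR. Averaged over the sexes 1 passed, against 0.0641% of all genes. Cyp2c23 had 36, 62.3 and 53.5 CPM in corylin females against 18.9, 24.2 and 26.2 in old females (1.13, SE 0.21, edgeR adjusted p = 0.0522), and 56.4, 75.9 and 61.2 in corylin males against 49, 36 and 45.6 in old males (0.57, SE 0.20, edgeR adjusted p = 0.584). Every corylin kidney was above every old kidney of its sex, and the average was 0.85 (SE 0.14, edgeR adjusted p = 0.0357). Beside it, the sum of 6 proximal tubule markers was lower in corylin than in old females, at 5860.2 to 6387 against 9541 to 15770.1 CPM. Of the 6, Kap, an androgen-regulated gene, passed in females (-2.21, edgeR adjusted p = 0.0039) and the other 5 lay between -0.16 and -0.05. The part of these markers in the change of Cyp2c23 was not tested. That count was 2 without corylin female 1 and 0 without each of corylin females 2 and 3, old female 1, corylin males 2 and 3 and old males 1, 2 and 3. On the B libraries alone the difference was 0.91 (edgeR adjusted p = 0.307). The difference of the corylin effect between the sexes passed for 0 members by edgeR and by DESeq2, with 7 at an unadjusted p under 0.05, and for 0.00582% of all genes. Cyp4f18 had 1.8, 2.57 and 3.28 CPM in corylin against 3.58, 6.28 and 5.72 in old females, without overlap (-1.03, SE 0.31, edgeR adjusted p = 0.194), and the summed macrophage markers were at 302 to 460.3 against 680.4 to 919 CPM.

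In quadriceps 17 members were tested, and all were low but Cyp2e1, which was high in some libraries. With age 2 changed in females, against 6.67% of all genes tested there. Cyp2d22 had 25.7, 34.1 and 21.1 CPM in young and 17.2, 14.5 and 12 in old females (-0.89, SE 0.17, edgeR adjusted p = 0.0236). Cyp4f14 had 0.179, 0.054 and 0.235 CPM in young and 0.661, 1.46 and 0.954 in old females (2.67, SE 0.73, edgeR adjusted p = 0.0422). The count was 0 without old female 3 or without young female 1 and 1 without young female 2 or without young female 3, and 0 on the B libraries alone. Without old female 3, the library with the high leukocyte markers, Cyp2d22 was at -0.75 (edgeR adjusted p = 0.069) and Cyp4f14 at 2.72 (edgeR adjusted p = 0.118). In males 0 passed by edgeR and by DESeq2, with 0 members at an unadjusted p under 0.05 and 0% of all genes. Averaged over the sexes Cyp2d22 passed (-0.54, SE 0.12, edgeR adjusted p = 0.0343), against 3.59% of all genes. That count was 2 without old female 1, 3 without old female 2, and 0 without old female 3, young female 1, old males 2 and 3 and each young male. A different age effect in females and males passed for 0 members by edgeR and DESeq2, with 3 at an unadjusted p under 0.05 and 0.226% of all genes.

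Cyp2e1 varied most in muscle: it had 1.79, 188 and 3.41 CPM in young females, 24.2, 16 and 70.2 in old and 46.1, 60.9 and 134 in corylin females, and 5.89, 6.31 and 3.38 in young, 16.1, 33.7 and 70 in old and 5.7, 28.5 and 165 in corylin males. Beside these values, the summed CPM of 4 adipocyte markers was 8.22, 737 and 16.7 in young, 108, 54.6 and 145 in old and 373, 224 and 341 in corylin females. In males it was 31.7, 39.7 and 10.5 in young, 87.1, 92.6 and 156 in old and 20.3, 74.8 and 452 in corylin mice. The library highest in Cyp2e1 was the highest in these markers in each group but the corylin females, where the library lowest in Cyp2e1 was, and the part of these markers was not tested. The age difference of Cyp2e1 in females was -0.81 (SE 1.31) and became 3.82 without young female 2. For corylin against old, 0 members passed by edgeR or DESeq2 in females (2 at an unadjusted p under 0.05), in males (1), averaged (2) or between the sexes (1), and 0% of all genes did in each of the 4. Between young females and males 0 members passed by edgeR and 1 by DESeq2, with 3 at an unadjusted p under 0.05, against 1.2% and 4.82% of all genes.

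Genes outside the families that work with these enzymes were described from lists written for this purpose. The lists were chosen with earlier results of these data known, so their counts are descriptions and no independent test. In old against young female livers, where 3.73% of all genes fell and 5.54% rose, 7 of 20 PPARalpha targets outside Cyp4 fell and 0 rose (median -0.45, against -0.01 over all genes), among them Acadm (-1.26, edgeR adjusted p = 0.00859), Ehhadh (-1.74) and Acot1 (-2.67), enzymes of fatty acid oxidation and acyl-CoA cleavage. The receptor Ppara changed by -0.63 (SE 0.18, edgeR adjusted p = 0.0443). Of 28 phase II genes, which conjugate P450 products, 7 fell and 0 rose (median -0.59), with Ces2e, a carboxylesterase, at -1.49 and Gstt1, a glutathione transferase, at -1.34. Of 22 acute phase genes 15 rose and 0 fell (median 1.80), with Hpx at 2.23 and Orm1 at 2.51. Their summed level was 74703 to 127587 CPM in old and 33175 to 42814 in young females. Of 14 genes of electron supply and heme turnover, 1 rose (Hmox1, heme oxygenase, 2.97) and 1 fell (Cpox, of heme synthesis, -1.20), and Por, the reductase that serves all members, did not pass (0.45, SE 0.31). Of 21 nuclear receptors and factors of P450 control 3 fell and 0 rose, and of 8 aryl hydrocarbon receptor genes and targets outside Cyp1 1 fell. Of 12 pericentral and 12 periportal liver genes outside Cyp, 1 rose and 2 fell, and 0 rose and 1 fell.

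In old against young male livers, where 0.152% of all genes rose and 0.0594% fell, 3 of 22 acute phase genes rose, 0 of 20 PPARalpha targets passed and 1 of 28 phase II genes fell. Among genes known to be higher in male liver 2 of 9 fell in old males (Hsd3b5, at -6.29, and Gstp1, at -1.83, on the log2 scale), and among 11 known to be higher in female liver 2 rose (Slc22a26, 4.64, and Slc22a27, 2.41). In young livers 10 of the 11 female and 6 of the 9 male genes differed between the sexes in the direction of their list, against 0.528% of all genes higher and 0.752% lower in females. With corylin, where 0.066% of all genes rose and 0.0858% fell in female liver, 1 gene of these lists passed there, the phase II gene Ces2e (1.41, SE 0.23, edgeR adjusted p = 0.0319), and 0 of 22 acute phase genes did, at a median of -1.58 and a summed 32838 to 50859 CPM. Averaged over the sexes, 8 of 22 acute phase genes fell with corylin (median -1.26) and 7 of 28 phase II genes rose (median 0.35), against 0.554% of all genes lower and 0.515% higher. In kidneys of old females, where 7.69% of all genes rose and 3.16% fell, 8 of 14 acute phase genes rose, 3 of 19 PPARalpha targets fell and 1 rose. Between young female and male kidneys, 5 of 14 genes of electron supply and heme turnover were lower in females, against 3.88% of all genes, Cyb5a, cytochrome b5, among them (-1.19).

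For old against young female livers the authors' deposited table gave 20 of 54 listed members an adjusted p under 0.05, 8 higher and 12 lower, and 15.1% of all listed genes. For old against young males the authors' deposited table gave 7 of 53, 3 higher and 4 lower, and 6.42% of all genes. For corylin against old livers the authors' deposited table gave 7 of 53 in females, with 3.75% of all genes, and 6 of 52 in males, with 0.967%.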

How the data were processed

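Libraries of polyadenylated RNA from the 3 tissues were stranded and read as pairs of 150 bases, per the labels' protocols. The submitters' processing notes name featureCounts 2.0.1 and HISAT2 2.1.0, with GRCm38 (mm10), besides FastQC 0.11.9 and fastp 0.20.0. The strand setting is not given in the sources used here. The authors deposited counts per gene, which were tested, and TPM, which served to compare levels between genes. The authors' deposited tables of comparisons give log2 fold changes and adjusted p-values.

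Counts were fitted with edgeR 4.0.16 (R 4.3.3), 1 quasi-likelihood fit per tissue over its 6 groups. Library sizes were scaled by TMM, genes were kept by a minimum count of 10 and a minimum total of 15, and p-values were adjusted by Benjamini-Hochberg over all genes with a threshold of 0.05. CPM are TMM-scaled. The rule for named genes was up to 12 members past the threshold per comparison, the 6 of highest TPM per tissue and a list fixed by role; where 14 or 16 passed in liver the remainder were also named, and they and other members named without passing (such as Cyp2c50 and Cyp2c70) were chosen after their values were seen. Of listed genes outside the families, up to 4 were named. Intervals on pooled counts are exact at 95%, and a count of 0 was set to a floor of 3; both cover counting error only. Alternatives were DESeq2 1.42.0, RLE scaling, no filter on low counts, the library letter as a term, the replicate number as a block, related genes summed, and each library left out. The fit on B libraries only, and the summed genes without 1 liver library, were added after the data were seen. The members and lists were chosen with earlier results of these data known. The fit was tested on simulated data for old against young females: of genes changed 2-fold and 4-fold it recovered 43% and 78% in liver (14868 genes), 57% and 94% in kidney (16927) and 50% and 83% in quadriceps (14027). One liver sample of a corylin male was not analysed here.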

Additional observations from a re-analysis of the deposited data

Results flagged for a closer look

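The following genes had group differences of opposite sign in 2 tissues, or in the sexes, with no sample against the sign of its group. Of these differences only those of Cyp2a4 had an edgeR adjusted p under 0.05, and none of the others passed on either side. Values are log2 differences, and differences between tissues were not tested. Chance gives some such pairs among the genes compared, and the share of all genes that meet this rule was not computed.

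Between young females and males, Cyp2a4 was at 10.09 in liver and -2.07 in kidney, 12.17 apart. For the same contrast Cyp4f17 was at 0.78 in quadriceps and -1.01 in liver (1.79 apart), and Cyp4v3, a fatty acid hydroxylase, at 0.39 in kidney and -0.92 in liver (1.31 apart).

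Between old and young males, Cyp2d genes differed between kidney and liver: Cyp2d10 was at 1.31 and -0.62 (1.92 apart), Cyp2d13 at 1.57 and -0.76 (2.33 apart) and Cyp2d34 at 1.36 and -1.20 (2.56 apart). These were scarce in kidney, with 282, 325 and 111 counts in total over its 18 libraries. With Cyp2d11 and Cyp2d9, the latter far more abundant in kidney, summed to it, Cyp2d10 was at -0.25 there. Cyp4a14 was at 1.06 in kidney and -0.30 in liver (1.37 apart), and Cyp4v3 at 0.40 and -0.77 (1.17 apart). Cyp2e1 was at 2.94 in quadriceps, beside summed adipocyte markers of 87.1 to 156 CPM in old and 10.5 to 39.7 in young males, and -0.88 in liver (3.82 apart), and Cyp2f2 at 1.53 and -0.66 (2.19 apart).

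Between corylin and old mice, Cyp2d34, scarce in kidney as given above, was at 3.25 there and -1.21 in liver of females (4.46 apart). Cyp4f18 was at 1.19 in liver and -1.03 in kidney of females (2.22 apart), and Cyp2c23 at 0.57 in kidney and -0.41 in liver of males (0.98 apart). The liver value of Cyp2c23 rests on 2 corylin males that disagreed in other members, and was -0.27 without corylin male 3.

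With age, the sexes differed in sign for Cyp4a14 in kidney, at 1.06 in males and -1.01 in females (2.08 apart, edgeR adjusted p = 0.0765 for the difference). They also did for Cyp2d40 in liver, at 1.32 in females and -1.05 in males (2.36 apart, edgeR adjusted p = 0.31).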

How the results depend on the processing

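Of 143 named log2 differences 80 were called, and 2 called ones turned sign in any setting, both where counts of related genes were summed. Cyp4a31 in liver of old against young females was at -1.36, and Cyp2a4 in liver with age averaged over the sexes at -0.16. They were at -1.27 and -0.19 when old female 3 was also left out. A sum follows its more abundant gene, Cyp4a10 for Cyp4a31 and, in males, Cyp2a5 for Cyp2a4. These signs are therefore no test of the scarcer gene. Calls were lost more often than signs turned. Over all fits without 1 library, 234 of the named results lost their call, 16 gained one, 773 kept their status and 4 turned sign. With no filter on low counts 21 calls were lost and 3 gained, and with the letter 11 were lost and 3 gained. With DESeq2 26 were gained. Of uncalled differences, Cyp2d10 in kidney of old males was at -0.25 when summed with Cyp2d11 and the far more abundant Cyp2d9. Cyp2a5 in liver of old females was at -0.33 on B libraries and ran from -0.29 (without old female 3) to 0.66 without 1 library. Cyp2e1 in liver of corylin males was at -0.01 with DESeq2 and with RLE, -0.02 with the letter, -0.16 with the replicate block, and ran from -1.52 (without corylin male 2) to 0.71 (without corylin male 3), at -0.09 without old male 2. Cyp2e1 in quadriceps of old females ran from -1.67 (without old female 3) to 3.82 (without young female 2). The share of all genes passing moved with the setting. For age in liver males it went from 0.211% to 6.26% with DESeq2 and to 5.38% on B libraries. For age in liver females it went from 9.27% to 21.9% on B libraries. For most of the settings below that share is not given here, so a moved count is no result about the members. Counts of members called moved as follows, and the cause was not tested. With DESeq2 they were, for age, 27 (average) and 7 (males) in liver, 1 for its sex difference, and 11, 1 and 4 in kidney; for corylin 6 (average), 7 (females) and 6 (males) in liver and 2 and 1 (average, females) in kidney; and 1 for sex in quadriceps. On B libraries, which hold fewer samples and 1 liver of a corylin male, they were 32, 10, 30 and 8 for age in liver (females, males, average, sex difference), 13 and 8 for corylin (average, females), and 0 for corylin in kidney (average) and age in quadriceps (females, average). RLE gave 2 for corylin in kidney (average). With no filter they were 8 for age in liver females, 1 for corylin in liver (average), and 2, 1 and 1 in kidney for corylin (average, females) and the sex difference of age. With the letter they were 1 for the sex difference of age in liver and in kidney, 2 and 1 for corylin in kidney (average, females), and 0 and 1 for age in quadriceps (average, females). Correlations of same-numbered samples ran from -0.4 to 0.48 over the tissues, with medians of 0.06 in liver, 0.03 in kidney and 0.07 in quadriceps. Among the R livers, replicate 3 of the old and corylin groups, every pair was positive, from 0.08 to 0.48. The main fit holds no term for this. With the replicate block the counts were 1 for corylin in liver (average), 2 and 1 in kidney (average, females), 11, 1 and 3 for age in kidney (average, males, sex difference) and 1 for age in quadriceps females. Without 1 library they ran in liver from 1 to 14 (age, females), 9 to 22 (average) and 0 to 3 (sex difference), 0 to 7, 0 to 5, 0 to 15 and 0 to 13 (corylin: average, females, males, sex difference; fits without a corylin male leave 1, assumed to vary like the other groups) and 8 to 11 (sex). In kidney they ran from 5 to 15, 4 to 10 and 0 to 1 (age: females, average, sex difference) and 0 to 2 (corylin, average and females), and in quadriceps from 0 to 3 (age, females and average) and 0 to 2 (corylin, females).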
